A study of Mus musculus with 3 samples.

Results

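The complement genes and regulators of the mouse heart were followed as 30 named genes among the 32285 features counted in single-nucleus RNA libraries. The genes were taken by name from a list, with no threshold on their values, and comprise 8 genes of recognition and the classical pathway, 3 of the lectin pathway, 4 of C3 and the alternative pathway, 4 of the terminal pathway, 5 receptors and 6 regulators. Hearts were collected 2 weeks after surgery, and there was 1 library per group: sham surgery with NS (Sham-NS), surgery for myocardial infarction with NS (MI-NS), and infarction with dapagliflozin (MI-DAPA), an inhibitor of the sodium-glucose cotransporter of the kidney. The labels do not spell out NS, and strain, sex, age, the dose, the part of the heart taken and the number of animals behind a library are not given in the sources used here. With 1 library per group there is no replicate check, so all intervals and ratios compare these libraries and cover counting error only. Values given as a run of 3 are in the order Sham-NS, MI-NS, MI-DAPA.

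Complement is a cascade of secreted proteins in which C1q or a lectin binds a surface, proteases such as C1r, C1s and the MASPs cut C4 and C2, and the resulting enzymes cut C3, the point where the classical, lectin and alternative pathways meet. Fragments of C3 and C5 act on receptors of leukocytes, while C6, C7, C8 and C9 join C5b in the membrane attack complex, and regulators on cells and in plasma hold each step back. The liver makes most complement of the blood, and macrophages, fibroblasts, mesothelium and fat are known local sources, C1q from macrophages and factor D (adipsin) from fat among them.

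After nuclei with few genes or many mitochondrial UMIs (unique molecular identifiers, 1 per captured RNA molecule) were left out, 8296, 7065 and 5372 nuclei remained, with median depths of 790, 851 and 831 UMIs. Nuclei were clustered with every complement gene left out, so the genes described here did not define the classes, and classes were named "-like" from marker genes. All markers of the macrophage-like and fibroblast-like classes were higher in the class than in the rest of each library. Some classes had very different sizes between libraries: mesothelial-like nuclei numbered 14, 457 and 14, and adipocyte-like nuclei numbered 2, 89 and 1. Such a class comes mostly from 1 library, so its levels cannot be told apart from that library, and what tissue each heart sample included was not tested. Fibroblast-like nuclei also lay in different clusters: 1574 of 1770 in Sham-NS were in a cluster led by Ppl and Dpep1, 1290 of 2029 in MI-NS in a cluster led by Comp and Ltbp2, and 774 of 1345 in MI-DAPA in a cluster led by Vcan. Cardiomyocyte-like nuclei were divided unevenly too: a cluster led by Myh7 and Ankrd1 held 103 of 1617, 713 of 984 and 712 of 1446. The rest were in a cluster led by Ces1d. Clusters with high doublet scores held 15.6%, 11.7% and 10.4% of kept nuclei and were left out of all classes, and the libraries shared 13 to 20 cell barcodes per pair.

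Complement transcripts came from many classes, with macrophage-like nuclei the most frequent site of highest level. The source of a gene was the class with the highest mean level over the 3 libraries (CPM, UMI counts scaled to 1 common total per class and library), where that class held at least 20 UMIs of the gene. By this rule 23 of the 30 genes had a source. Macrophage-like nuclei were the source of 8 (C1qa, C1qb, C1qc, Cfp, C6, C3ar1, C5ar1 and C5ar2), mesothelial-like nuclei of 5 (C1ra, C2, C3, Cfb and Clu), and adipocyte-like (C4b, Cfd), fibroblast-like (C7, Serping1) and vascular endothelial-like nuclei (Cd93, Cr1l) of 2 each. Masp1 was highest in cardiomyocyte-like, Colec11 in pericyte-like, C1s1 in smooth muscle-like and Cd55 in B cell-like nuclei. The other 7 (C4a, Colec12, Hc, C8g, Vsig4, Cfi and Cd59a) had too few UMIs in their highest class. Among only the classes with at least 50 nuclei in every library, the source of 15 of the 23 stayed as given, C1ra, C3 and Cd55 were highest in fibroblast-like nuclei, C2, C4b and Cfb in macrophage-like nuclei and Clu in cardiomyocyte-like nuclei, and Cfd had no source.

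**Figure D1:**
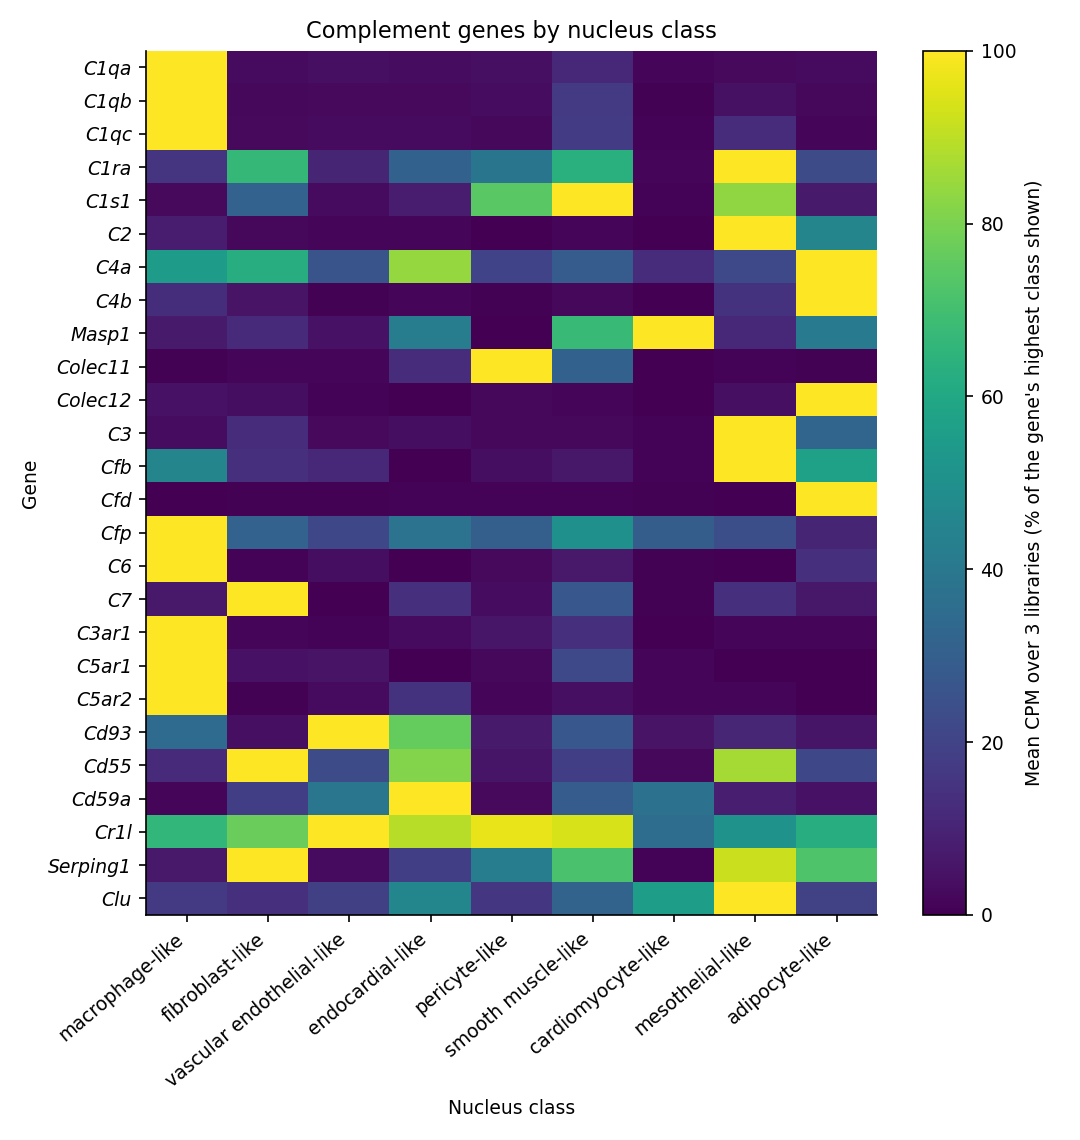
Each row is 1 of the 26 complement genes with at least 50 UMIs in named classes, each column 1 of 9 classes of nuclei, and the colour is the mean CPM over the 3 libraries as a percentage of the gene's highest class shown. The C1q genes, C3ar1, C5ar1, C5ar2 and C6 fill the macrophage-like column, while Cr1l is spread over most columns. The adipocyte-like column weights libraries of 2, 89 and 1 nuclei equally. Colec12 is highest there on only 6 UMIs, and the C4b row is scaled to that column.

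C1q, the recognition molecule of the classical pathway, is built of A, B and C chains from C1qa, C1qb and C1qc, which lie in tandem on the minus strand of chromosome 4 (mm10), C1qa at chr4:136895917-136898803, C1qc 2.85 kb and C1qb a further 3.62 kb away. Promoter windows (250 bases before to 50 after the start, RefSeq, GRCm38.p6) were at hand for C1qb and C1qc and are shown because the genes moved together. Capitals mark GAGGAA or its reverse complement TTCCTC, a core that ETS factors such as PU.1 of macrophages can bind, found on either strand in 28.3% of all 32851 promoter windows:
C1qb, chr4:136886151-136886450, minus strand: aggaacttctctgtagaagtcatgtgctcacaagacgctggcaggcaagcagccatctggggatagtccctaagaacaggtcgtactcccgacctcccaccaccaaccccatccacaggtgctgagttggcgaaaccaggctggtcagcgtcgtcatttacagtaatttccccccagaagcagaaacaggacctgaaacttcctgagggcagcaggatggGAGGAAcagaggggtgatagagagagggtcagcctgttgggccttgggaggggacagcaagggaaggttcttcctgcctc
C1qc, chr4:136892865-136893164, minus strand: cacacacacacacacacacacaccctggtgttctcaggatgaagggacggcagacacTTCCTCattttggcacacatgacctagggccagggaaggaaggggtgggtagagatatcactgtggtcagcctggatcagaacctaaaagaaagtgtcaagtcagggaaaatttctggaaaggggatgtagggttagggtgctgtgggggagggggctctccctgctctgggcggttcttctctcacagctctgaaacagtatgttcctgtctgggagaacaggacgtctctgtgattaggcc
Each of the pair held 1 match.

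The C1q genes were macrophage-like genes in every library, and all were lower in MI-DAPA than in MI-NS. In macrophage-like nuclei C1qa stood at 688 CPM in Sham-NS (exact Poisson interval at 95%, 619 to 763), 742 in MI-NS (675 to 814) and 332 in MI-DAPA (262 to 416). C1qb stood at 577 (513 to 646), 772 (704 to 845) and 507 CPM (419 to 608), and C1qc at 358 (308 to 413), 500 (445 to 559) and 258 CPM (196 to 333). MI-NS was thus the highest library for each, and for C1qa MI-DAPA lay below both others. The log2 ratio of MI-DAPA to MI-NS was -1.15 for C1qa (exact conditional interval -1.53 to -0.81), -0.60 for C1qb (-0.91 to -0.31) and -0.94 for C1qc (-1.38 to -0.55). Against Sham-NS, MI-NS was at 0.11 for C1qa (-0.09 to 0.31), 0.42 for C1qb (0.21 to 0.63) and 0.48 for C1qc (0.21 to 0.75), so the interval for C1qa included no difference, and with scaling by TMM (trimmed mean of M values) its ratio was 0.01. Cardiomyocyte-like nuclei, which should lack C1q, held C1qa at 8.0, 9.96 and 3.24 CPM, a trace that was also lowest in MI-DAPA. Macrophage-like nuclei were 9.04%, 11.8% and 6.74% of kept nuclei, and over all kept nuclei the ratio of MI-DAPA to MI-NS for C1qa was -2.18 (-2.45 to -1.93).

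Macrophage-like nuclei were split again, without complement genes, into 7 subclusters. A subcluster led by Cd163 and F13a1 held 321, 25 and 89 nuclei. One led by Clec10a and Ccl6 held 22, 269 and 25, and one led by Lgals3 and Tnfaip2 held 1, 124 and 40. C1qa was lower in MI-DAPA than in MI-NS in each of the 7, for example 434 against 1151 CPM in the Cd163 subcluster, 323 against 1007 in the Clec10a subcluster and 236 against 451 in a subcluster led by Ccr2. In the subcluster led by Col3a1, where fibroblast genes lead, the values were close, at 312 and 334 CPM on 4 and 10 UMIs. With the 7 subclusters given the same weights in both libraries, the log2 ratio of MI-DAPA to MI-NS was -1.31 for C1qa, -0.59 for C1qb and -0.98 for C1qc. For MI-NS against Sham-NS, over the 6 subclusters with at least 10 nuclei in both, it was 0.25 for C1qa, 0.15 for C1qb and 0.28 for C1qc. The values of C1qb and C1qc were thus smaller than in the whole class.

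**Figure D2:**
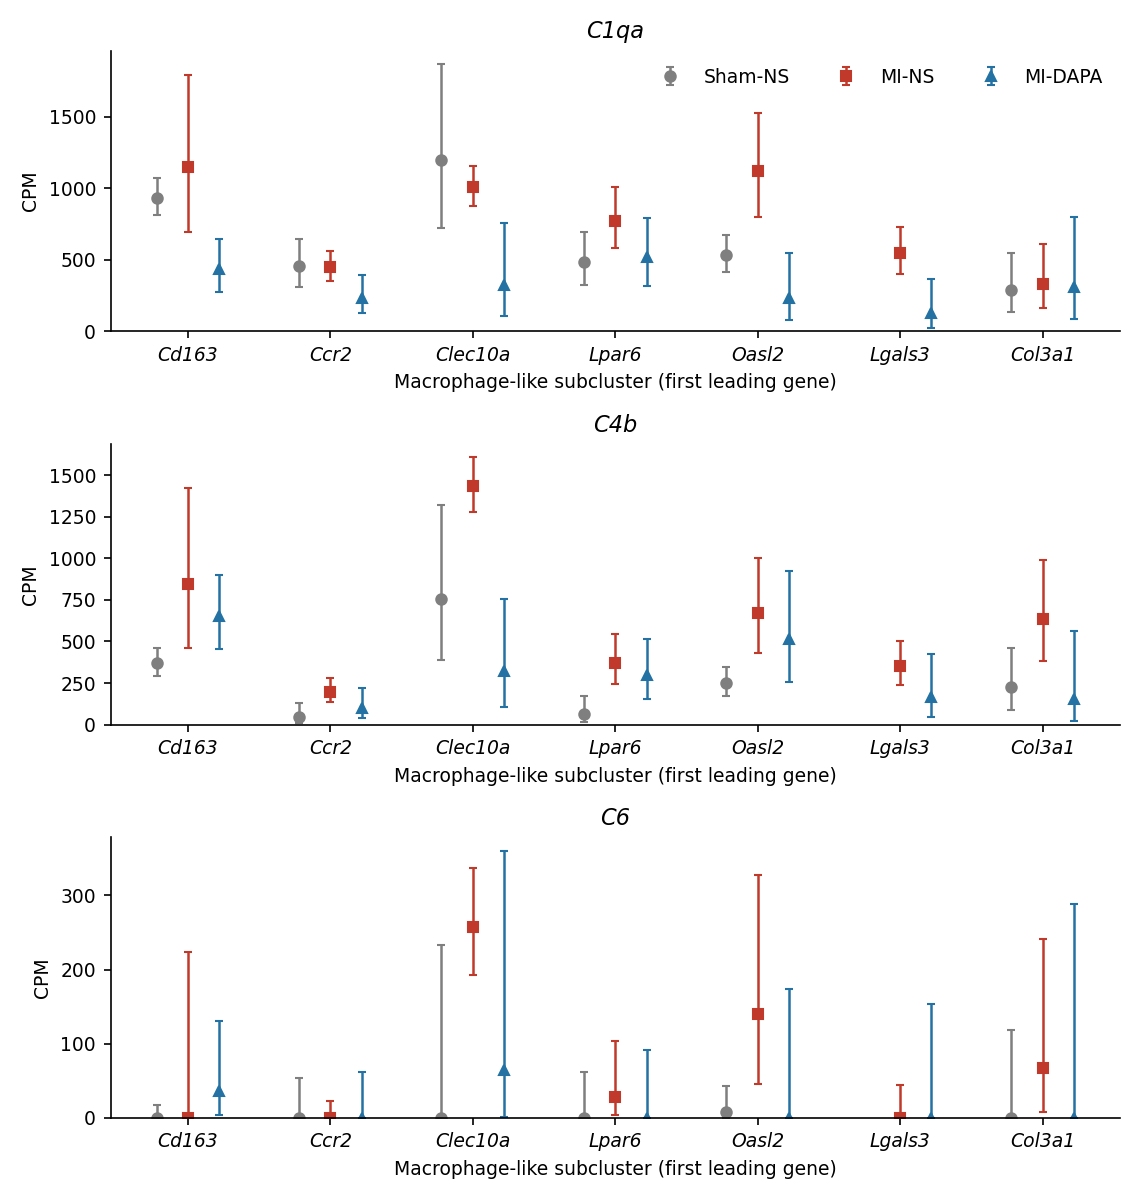
CPM of C1qa, C4b and C6 in the 7 macrophage-like subclusters, each named by its first leading gene, with exact Poisson intervals at 95% and 1 point per library with at least 10 nuclei. C1qa lies lower in MI-DAPA than in MI-NS in every subcluster, and C6 reaches 258 CPM in the Clec10a subcluster of MI-NS.

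C1ra and C1s1 encode the proteases C1r and C1s of the C1 complex and are neighbours on chromosome 6, 6.90 kb apart on opposite strands. Both have mouse paralogs, C1rb and C1s2, with 2 and 23 UMIs in all, between which similar reads could be split. C1s1 was a gene of mural, stromal and mesothelial-like nuclei. Smooth muscle-like nuclei held 892 CPM in Sham-NS (704 to 1115), 510 in MI-NS (393 to 649) and 1091 in MI-DAPA (848 to 1384). The log2 ratio was -0.81 (-1.31 to -0.31) for infarct against sham and 1.10 (0.59 to 1.61) for MI-DAPA against MI-NS. MI-NS was the low library there, on 65 to 77 UMIs per library. Pericyte-like nuclei held C1s1 at 688, 565 and 597 CPM, with intervals that overlapped between MI-NS and the others. Mesothelial-like nuclei, second by mean level, held 11, 550 and 11 UMIs of C1s1, which was 37.9% of its UMIs in MI-NS. Over all kept nuclei C1s1 was higher in MI-NS than Sham-NS, at a log2 ratio of 0.39 (0.28 to 0.50). Without mesothelial-like and adipocyte-like nuclei that ratio was -0.19 (-0.32 to -0.07). In fibroblast-like nuclei C1s1 was 385 CPM (352 to 419) in Sham-NS against 182 (163 to 203) in MI-NS and 216 (189 to 246) in MI-DAPA, so sham was highest. Within the Vcan-led cluster, present in all libraries, C1s1 was at 191, 237 and 242 CPM, and with cluster weights held equal over the 2 clusters with at least 10 nuclei in both libraries the log2 ratio of MI-NS to Sham-NS was 0.78, opposite in sign to the -1.08 (-1.29 to -0.88) of the whole class, with 11 UMIs behind the Ppl-led cluster of MI-NS. C1ra differed little in fibroblast-like nuclei, at 88.9, 72.5 and 72.4 CPM, and its log2 ratio of MI-NS to Sham-NS was -0.29 (-0.66 to 0.08). Over all kept nuclei C1ra had 247, 429 and 122 UMIs, of which mesothelial-like nuclei held 2, 119 and 1. The log2 ratio there was 1.05 (0.82 to 1.28) for MI-NS against Sham-NS and -1.57 (-1.875 to -1.279) for MI-DAPA against MI-NS. Without mesothelial-like and adipocyte-like nuclei these ratios were 0.67 (0.42 to 0.92) and -1.185 (-1.506 to -0.878).

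C4, cut by C1s or the MASPs, is encoded by C4b, and its neighbour C4a is a near-identical paralog on chromosome 17, so counts of either are uncertain between them. C4b had its highest level in adipocyte-like nuclei, where MI-NS held 490 UMIs (2631 CPM, 2403 to 2875) over 89 nuclei and the other libraries only 1 and 6 UMIs. Mesothelial-like nuclei of MI-NS held 710 UMIs (1058 CPM, 982 to 1139), beside 4 UMIs in each of the other libraries. In the larger classes C4b was at 265 CPM (223 to 313) in macrophage-like nuclei of Sham-NS, 726 (660 to 797) in MI-NS and 332 (262 to 416) in MI-DAPA. MI-NS stood above both others, with log2 ratios of 1.45 over Sham-NS (1.17 to 1.74) and of -1.12 for MI-DAPA against MI-NS (-1.50 to -0.77). Of the 440 macrophage-like UMIs in MI-NS, 295 lay in the Clec10a subcluster. There C4b was at 757, 1435 and 323 CPM, and with equal subcluster weights the ratios were 1.21 and -1.32. Fibroblast-like nuclei showed another order, 137 CPM (118 to 158), 205 (185 to 227) and 216 (189 to 246), in which MI-DAPA stayed beside MI-NS. With equal cluster weights the fibroblast-like ratio of MI-NS to Sham-NS, 0.58 (0.33 to 0.85), turned to -0.23. That weighting used 2 clusters, without the Comp-led one, and the Ppl-led cluster had only 21 nuclei in MI-NS. The 11 fibroblast markers, all of them detected in macrophage-like nuclei, summed to 625, 1485 and 629 CPM there, and 7 monocyte markers, 1 of them at 0, summed to 160, 652 and 267 CPM. Both sums move with C4b and C3 of this class, and their part in the result was not tested. C4a totalled 82 UMIs over all kept nuclei.

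C2, which joins C4b in the C3-cutting enzyme, and Cfb, its counterpart in the alternative pathway, lie 85 bases apart on chromosome 17. The predicted gene Gm20547 overlaps both on the same strand, so reads could be assigned to it. The pair shared a pattern: C2 had 18, 185 and 10 UMIs in all kept nuclei, and Cfb had 18, 164 and 18. C2 was thus 1.72, 21.0 and 1.34 CPM, and Cfb 1.72, 18.6 and 2.42 CPM. Of the MI-NS UMIs, mesothelial-like nuclei held 79 of C2 and 82 of Cfb, and adipocyte-like nuclei held 44 and 13. As CPM within the mesothelial-like class C2 was not higher in MI-NS, at 118 CPM against 237 on 4 UMIs in Sham-NS. Without the mesothelial-like and adipocyte-like nuclei the log2 ratio of MI-NS to Sham-NS was 2.51 for C2 (1.69 to 3.50) and 2.31 for Cfb (1.57 to 3.17), and MI-DAPA against MI-NS was -2.96 (-4.42 to -1.92) and -1.81 (-2.68 to -1.08).

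The lectin pathway genes were found in cardiomyocyte-like, pericyte-like, fibroblast-like and macrophage-like nuclei, and between MI-NS and each other library the intervals of the classes given here overlapped. Masp1, a protease that acts beside lectins, had 85.0% of its UMIs in cardiomyocyte-like nuclei, at 14.8 CPM (11.2 to 19.0), 21.7 (16.0 to 28.8) and 15.4 (11.7 to 20.0). Within the Myh7-led and the Ces1d-led cluster of this class, Sham-NS was instead the highest library for Masp1. Colec11, a collectin that recognises sugars, was highest in pericyte-like nuclei at 342 CPM (284 to 410), 436 (346 to 542) and 486 (399 to 586). For Colec11 the log2 ratio of MI-DAPA to Sham-NS was 0.50 (0.12 to 0.89). Colec12, a scavenger receptor of the same family, was at 36.6, 34.0 and 21.99 CPM in fibroblast-like nuclei and at 48.1, 33.0 and 39.3 CPM in macrophage-like nuclei. Over all kept nuclei Colec12 was at 14.9, 22.1 and 8.74 CPM, a log2 ratio of -1.33 (-1.76 to -0.92) for MI-DAPA against MI-NS, and of -1.27 without the mesothelial-like and adipocyte-like nuclei.

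C3, the central component, lies at chr17:57203970-57228136 on the minus strand. Its promoter is shown because C3 went in different directions in different classes, with capitals at TTNNGNAA or its reverse complement, the general form of sites bound by C/EBP factors, which 40.7% of all promoter windows hold on either strand:
C3, chr17:57228087-57228386, minus strand: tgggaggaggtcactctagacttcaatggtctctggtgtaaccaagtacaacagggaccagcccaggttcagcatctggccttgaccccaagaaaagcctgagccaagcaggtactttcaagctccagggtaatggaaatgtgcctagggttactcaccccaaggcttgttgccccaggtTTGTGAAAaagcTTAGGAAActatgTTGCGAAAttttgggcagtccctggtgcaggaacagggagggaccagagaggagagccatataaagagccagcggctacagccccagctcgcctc
The window held 3 matches.

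Mesothelial-like and fibroblast-like nuclei held most C3 UMIs of the named classes, 49.47% and 30.85%. By mean level, adipocyte-like nuclei, nearly all from MI-NS, were second at 320 CPM, above fibroblast-like nuclei at 124 CPM. Mesothelial-like nuclei held 1244 CPM in Sham-NS (21 UMIs, 770 to 1901), 1210 in MI-NS (812 UMIs, 1129 to 1297) and 499 in MI-DAPA (9 UMIs, 228 to 947), so the level per UMI in sham and infarct had overlapping intervals while the number of nuclei differed. The makeup of this class moved too: the 11 fibroblast markers, none at 0, summed to 3553, 10600 and 11200 CPM in it and the 9 mesothelial markers to 6988, 3615 and 4546, and their part in the result was not tested. Over all kept nuclei C3 was at 48.3, 165 and 20.4 CPM, and 56.0% of the MI-NS UMIs were mesothelial-like. Fibroblast-like nuclei held 176 CPM (155 to 200), 110 (95.01 to 126) and 87.0 (70.4 to 106), with sham the highest. Their log2 ratio was -0.68 (-0.96 to -0.40) for MI-NS against Sham-NS and -0.33 (-0.71 to 0.02) for MI-DAPA against MI-NS. In the Vcan-led cluster alone C3 was at 153, 149 and 75.8 CPM, and with equal cluster weights MI-NS against Sham-NS was at 1.06, opposite to the class, on only 7 UMIs in the Ppl-led cluster of MI-NS. Macrophage-like nuclei held C3 at 28.8 CPM in Sham-NS (15 UMIs), 64.3 in MI-NS (39 UMIs) and 0 in MI-DAPA, taken to allow 13.1 CPM (3 UMIs). The MI-NS value was 4.91-fold above that floor, with its own counting error left out. In cardiomyocyte-like nuclei, which hold little C3, the values had the order of the whole library, at 2.50, 21.7 and 1.89 CPM.

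**Figure D3:**
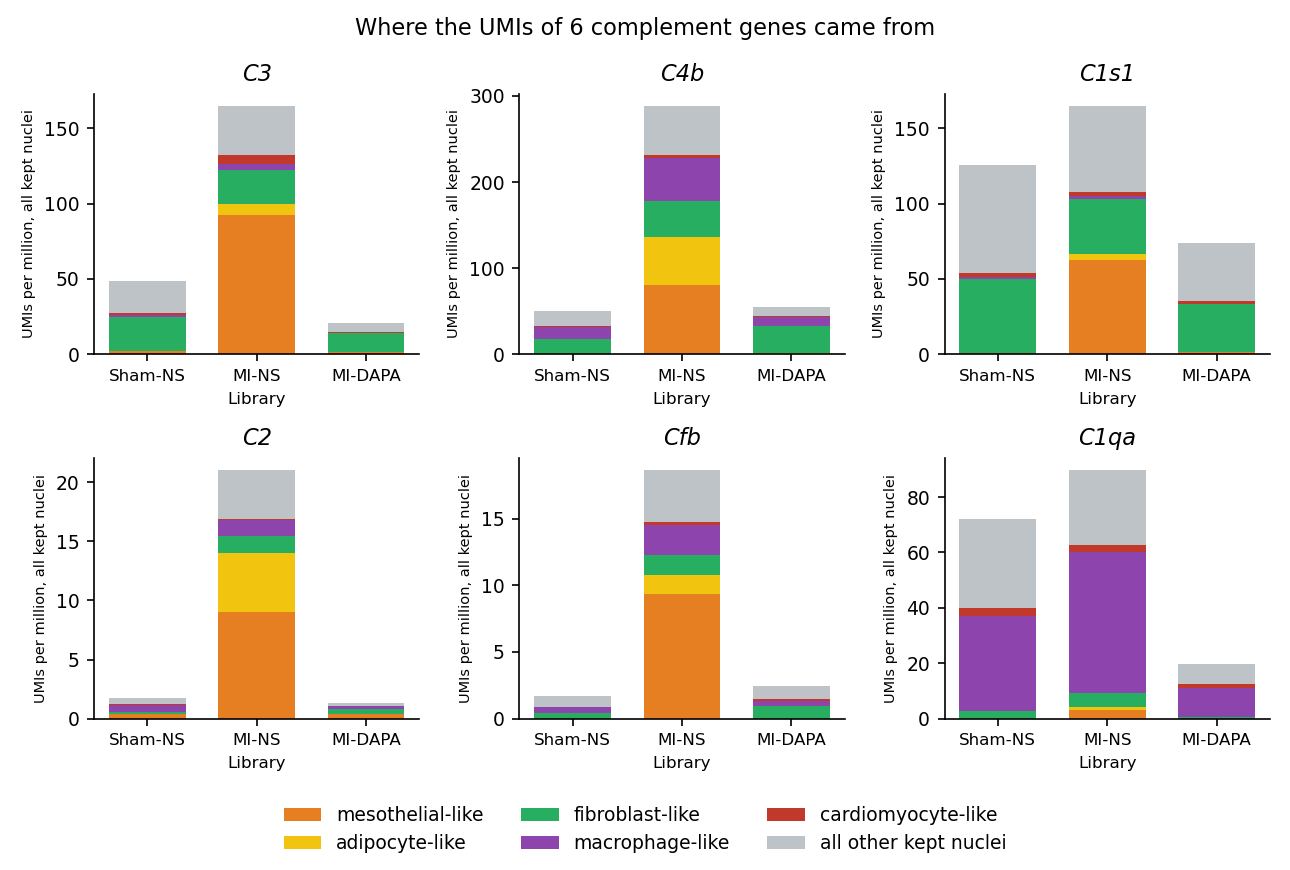
Bars give the CPM of each gene over all kept nuclei in 1 library per group, split by class of nuclei, with grey for all other kept nuclei including clusters of high doublet score. For C3, C4b, C2 and Cfb much of the MI-NS bar is mesothelial-like and adipocyte-like, and for C1qa the macrophage-like share is the largest coloured part in each library.

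The remaining alternative pathway genes were Cfd and Cfp. Cfd, the protease factor D, had 2, 280 and 0 UMIs. Adipocyte-like nuclei held 223 of the 280 UMIs, at 1197 CPM (1045 to 1365). Over all kept nuclei Cfd in MI-NS was 78.95-fold above the floor of 3 UMIs in MI-DAPA, with counting error in MI-NS left out. The exact conditional interval of the log2 ratio of MI-DAPA to MI-NS had its upper limit at -5.995. There were 89 adipocyte-like nuclei in MI-NS and 1 in MI-DAPA. Cfp encodes properdin, which stabilises the alternative pathway enzyme. In macrophage-like nuclei it was at 98.0 CPM (73.0 to 129), 178 (146 to 215) and 91.8 (56.8 to 140), highest in MI-NS. Its largest number of UMIs, 39.9%, was nonetheless in cardiomyocyte-like nuclei, at 48.5, 29.0 and 30.8 CPM, with sham the highest. The part of the uneven cluster shares of cardiomyocyte-like nuclei in this was not tested.

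C6 and C7, both of the membrane attack complex, are neighbours on chromosome 15, 173.8 kb apart with 1 protein-coding gene, Mroh2b, between them. C6 lies at chr15:4727175-4814967 on the plus strand and C7 at chr15:4988762-5063740 on the minus strand. Their promoters are shown because the neighbours differed in class and in direction, with capitals at TTNNGNAA as for C3:
C6, chr15:4726960-4727259, plus strand: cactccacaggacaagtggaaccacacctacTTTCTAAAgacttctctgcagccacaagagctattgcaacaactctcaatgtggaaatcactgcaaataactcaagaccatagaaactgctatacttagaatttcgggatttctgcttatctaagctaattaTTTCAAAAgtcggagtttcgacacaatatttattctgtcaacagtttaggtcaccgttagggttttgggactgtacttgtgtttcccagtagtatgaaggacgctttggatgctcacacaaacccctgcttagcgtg
C7, chr15:5063724-5064023, minus strand: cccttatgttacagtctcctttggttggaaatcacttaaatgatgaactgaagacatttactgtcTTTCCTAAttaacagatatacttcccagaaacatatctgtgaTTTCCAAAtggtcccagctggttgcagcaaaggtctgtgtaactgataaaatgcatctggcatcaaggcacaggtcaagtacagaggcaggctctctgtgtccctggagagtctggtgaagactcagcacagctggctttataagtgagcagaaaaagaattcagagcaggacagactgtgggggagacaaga
Each window held 2 matches to TTNNGNAA and none to GAGGAA.

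C6 appeared in macrophage-like nuclei of MI-NS. It had 1 UMI there in Sham-NS (1.92 CPM, 0.05 to 10.7), 62 in MI-NS (102 CPM, 78.4 to 131) and 3 in MI-DAPA (13.1 CPM, 2.70 to 38.3). The log2 ratio was 5.16 (3.20 to 11.06) for MI-NS against Sham-NS and -2.75 (-5.28 to -1.35) for MI-DAPA against MI-NS, wide because of the single counts. Of the 62 UMIs, 53 were in the Clec10a subcluster, where the 22 nuclei of Sham-NS held 0 and the 25 of MI-DAPA held 1. With subcluster weights held equal, C6 was at 84.4 against 1.22 CPM in MI-NS against Sham-NS. That weighting takes the 0 of Sham-NS in the Clec10a subcluster as it stands. Its interval reaches 233 CPM and overlaps that of MI-NS there, 258 CPM (193 to 337). C7 had the reverse pattern in fibroblast-like nuclei: 91 UMIs in Sham-NS (68.0 CPM, 54.7 to 83.4), 5 in MI-NS (2.83 CPM, 0.92 to 6.61) and 16 in MI-DAPA (14.7 CPM, 8.38 to 23.8). Sham stood far above both infarct libraries, with a log2 ratio of -4.45 (-6.24 to -3.31) for MI-NS and of -2.18 (-3.08 to -1.44) for MI-DAPA, each against Sham-NS. The Ppl-led fibroblast cluster held 84 of the 91 UMIs, and in the Vcan-led cluster C7 was at 44.6, 6.64 and 16.1 CPM on 7, 4 and 10 UMIs, in the same order. Hc, the gene of C5, totalled 15 UMIs and C8g 21, too few for a comparison.

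The receptors were mostly macrophage-like. C3ar1, the receptor of C3a, was at 127 CPM (98.1 to 161), 140 (112 to 173) and 140 (95.6 to 197) in macrophage-like nuclei, with overlapping intervals in all libraries. With equal subcluster weights its MI-NS to Sham-NS ratio was -0.66, against 0.14 in the class. C5ar1, the C5a receptor, was at 25.0 CPM (13.3 to 42.7), 59.4 (41.6 to 82.2) and 39.3 (18.0 to 74.7), on 13, 36 and 9 UMIs, and C5ar2, the other C5a receptor, was at 49.99 (32.7 to 73.2), 80.8 (59.8 to 107) and 65.5 (36.7 to 108). MI-NS was the highest library for C5ar1 and C5ar2, with intervals that overlapped those of both Sham-NS and MI-DAPA. Cd93, once described as a C1q receptor and a surface protein of endothelium, was at 173 CPM (150 to 199), 352 (309 to 400) and 308 (267 to 354) in vascular endothelial-like nuclei. Both infarct libraries lay above sham, and the ratio of MI-DAPA to MI-NS was -0.19 (-0.47 to 0.08). The higher level of the infarct without drug held in each of 3 vascular clusters, 274 against 168, 430 against 198 and 304 against 198 CPM, and endocardial-like nuclei stayed at 208, 204 and 225 CPM. The MI-NS to Sham-NS ratio of 1.02 (0.75 to 1.30) became 0.81 with TMM. Vsig4, a receptor of resident macrophages, totalled 39 UMIs.

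Among the regulators, Cd55, which speeds the decay of the C3-cutting enzymes, was level in fibroblast-like nuclei at 91.9 CPM (76.3 to 110), 91.2 (77.7 to 106) and 90.7 (73.7 to 110). Its log2 ratios were -0.01 (-0.36 to 0.34) and -0.01 (-0.38 to 0.36). Serping1, the inhibitor of C1r and C1s, was highest in fibroblast-like nuclei of Sham-NS at 225 CPM (200 to 252), against 137 (120 to 155) in MI-NS and 131 (110 to 154) in MI-DAPA. In the Vcan-led cluster Serping1 was at 153, 168 and 155 CPM. Cr1l (Crry), the rodent regulator of C3 on cell surfaces, was broadly spread, from 259, 191 and 218 CPM in vascular endothelial-like nuclei to 78.3, 75.6 and 85.1 in cardiomyocyte-like nuclei. In vascular endothelial-like and fibroblast-like nuclei MI-NS lay below Sham-NS, at log2 ratios of -0.44 (-0.75 to -0.14) and -0.56 (-0.81 to -0.31). Clu, clusterin, which binds terminal complexes, was at 46.3 CPM (39.8 to 53.4), 79.2 (67.9 to 91.9) and 40.2 (34.1 to 47.3) in cardiomyocyte-like nuclei, highest in MI-NS. Their shares in the Myh7-led cluster differed between libraries, and the part of this in the Clu values was not tested. Fibroblast-like nuclei were also highest in MI-NS for Clu, at 8.21, 24.4 and 9.16 CPM. With equal cluster weights the log2 ratio of MI-NS to Sham-NS turned from 1.52 (0.59 to 2.67) to -0.49. That weighting used 2 clusters and left out the Comp-led cluster, which held 1290 fibroblast-like nuclei of MI-NS and 7 of Sham-NS. The Ppl-led cluster in it had only 21 nuclei in MI-NS. Cd59a, which blocks the membrane attack complex, stood at 13.8, 14.9 and 12.2 CPM in cardiomyocyte-like nuclei, and Cfi, the protease factor I, had 1 UMI in all kept nuclei.

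**Figure D4:**
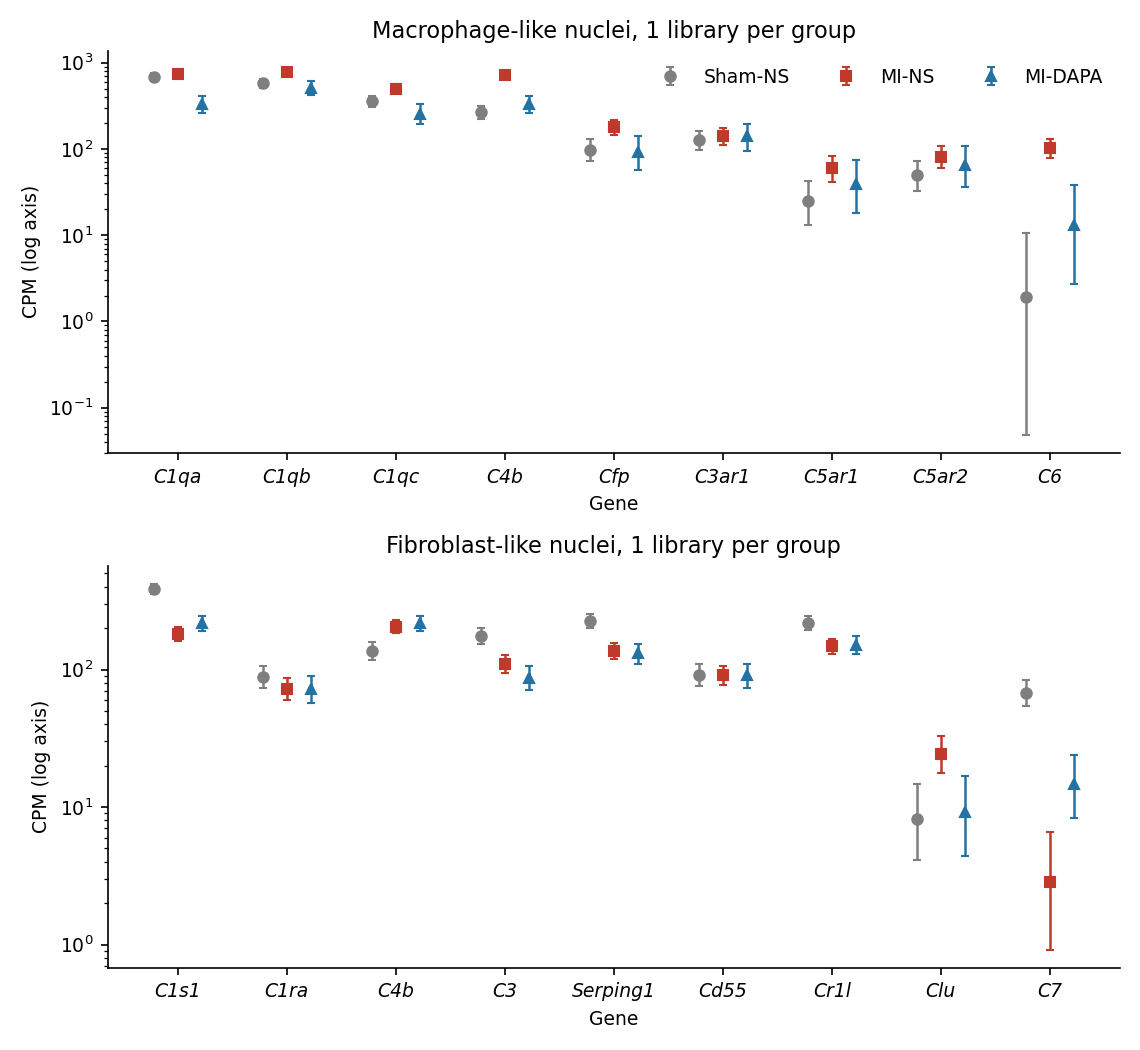
CPM on a log axis in macrophage-like nuclei (upper panel) and fibroblast-like nuclei (lower panel), 1 point per library with its exact Poisson interval at 95%, to be compared between libraries within a gene. In the upper panel MI-NS holds the highest point for all 9 genes, with C3ar1 at 140 CPM in both infarct libraries, and C7 in the lower panel runs from 68.0 CPM in Sham-NS to 2.83 in MI-NS.

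Read across genes, macrophage-like nuclei of the infarct without drug held more complement RNA than those of sham, and the library with dapagliflozin held less. A gene was measurable in a class with at least 50 UMIs over both libraries. For MI-NS against Sham-NS, 11 members were measurable in macrophage-like nuclei, and 3 (C4b, C3 and C6) were at least 2-fold higher, beside 5.28% of all 4660 measurable genes of that class. None was at least 2-fold lower, beside 2.17% of genes, and the median log2 ratio was 0.59 for the members and 0.05 for all genes. For MI-DAPA against MI-NS, 10 were measurable, 3 (C1qa, C4b and C6) were at least 2-fold lower, beside 4.18% of 3712 genes, and 0 were 2-fold higher, beside 1.4%, with medians of -0.77 and 0.02. The comparisons share the MI-NS library, so a high value there enters both. Fibroblast-like nuclei had 13 measurable members. Of these, 1 (Clu) was at least 2-fold higher in MI-NS than Sham-NS, beside 8.91% of genes. Another 2 (C1s1 and C7) were at least 2-fold lower, beside 3.9%. The directions of Clu and C1s1 turned with equal cluster weights in fibroblast-like nuclei, and that of C7 did not. For MI-DAPA against MI-NS 1 of 10 (Clu) was lower there and 0 were higher, beside 3.34% and 1.14% of genes, and the medians were -0.03 and -0.04.

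**Figure D5:**
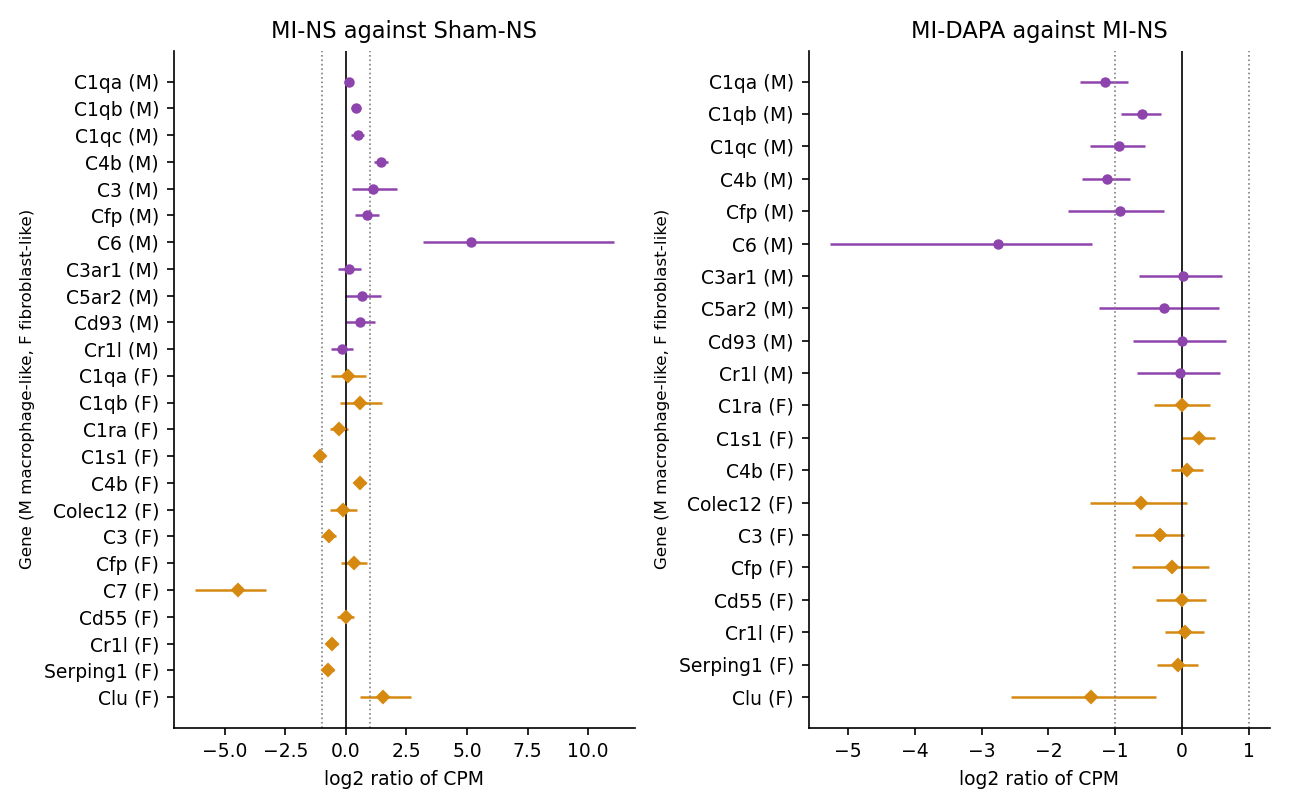
Log2 ratio of CPM for each measurable complement gene in macrophage-like (M, purple circles) and fibroblast-like nuclei (F, orange diamonds), with exact conditional intervals at 95% and dotted lines at 2-fold. In the right panel the C1q genes, C4b, Cfp and C6 of macrophage-like nuclei lie below 0.

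Each gene in its own source class gave 6 of 21 measurable members at least 2-fold higher in MI-NS than Sham-NS (C4b, Cfd, C6, Cfb, Clu and Cd93) and 2 lower (C7 and C2). For MI-DAPA against MI-NS it gave 6 of 20 lower (C1qa, C6, C1ra, C3, Cfb and Clu) and 2 higher (C4b and C1s1). Of these 16 values, 10 came from mesothelial-like or adipocyte-like nuclei, each with 0 to 9 UMIs in the smaller library. For Cfb, and for Clu in MI-DAPA, that number was 0, and against the floor of 3 UMIs their folds did not reach 2. In mesothelial-like nuclei 23.6% of all measurable genes were 2-fold higher and 15.3% lower for MI-NS against Sham-NS, and 14.2% higher and 17.9% lower for MI-DAPA against MI-NS. In adipocyte-like nuclei these shares were 23% and 26.8%, then 43.9% and 3.71%. Of the calls in larger classes, Cd93 stood beside 6.44% of vascular endothelial-like genes that were higher in MI-NS, and C1s1 beside 5.03% of smooth muscle-like genes that were higher in MI-DAPA. Over all kept nuclei, where the number of nuclei of a type and the RNA per nucleus cannot be told apart, 10 of 26 members were at least 2-fold higher in MI-NS than Sham-NS, beside 14.3% of genes, and 1 (C7) was lower, beside 2.63%. MI-DAPA was at least 2-fold lower than MI-NS for 19 of 25, beside 14.9% of genes, and higher for 0, beside 1.68%. The medians of the members were 0.76 and -1.38, and those of all genes 0.31 and -0.38. Without the mesothelial-like and adipocyte-like nuclei these counts were 7 higher and 1 lower of 26, beside 12.6% and 2.41% of genes, and 16 lower and 0 higher of 24, beside 12.9% and 1.39%. The remaining nuclei include the clusters of high doublet score, and still held 55 UMIs of Cfd in MI-NS against 1 in Sham-NS. Whether RNA of the left-out classes remained in other barcodes was not tested.

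The wider complement list of 29 genes had 8 with a source class, and 3 of those reached 50 UMIs there. Itgam, the alpha chain of complement receptor CR3, was at 165 (132 to 204), 295 (254 to 342) and 184 CPM (132 to 248) in macrophage-like nuclei, highest in MI-NS. Vtn, vitronectin, was level in pericyte-like nuclei at 429, 490 and 495 CPM.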

How the data were processed

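Nuclei were isolated with detergent and a density cushion and run with a 3′ droplet kit, per the labels' protocols. The authors deposited filtered matrices of whole-number UMI counts per gene and barcode, made with Cell Ranger 6.0.1 per the file headers. The submitters' processing notes name mm10 and Seurat without their role, and whether intronic reads were counted is not given in the sources used here. Every barcode held at least 500 UMIs, and libraries held 13873275, 10113430 and 8871086 UMIs.

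Nuclei with at least 300 genes and at most 10% mitochondrial UMIs were kept. They were clustered with scanpy 1.11.5 (2000 variable genes per library, complement genes left out, 30 components, 15 neighbours, Leiden resolution 1.0, no batch correction). Clusters with a median doublet score above 0.1 were left out, since Scrublet's own threshold called 0, 1 and 2 nuclei and so had not worked. Names needed 3 markers at 2-fold and 20 UMIs from 21 marker sets, and clusters whose top 10 genes held more markers of another type took that type; that Vcan and Fn1 do not count against a fibroblast name was decided after clusters were seen. Macrophage-like nuclei were split again (20 components, resolution 0.8).

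Counts were summed per library and class and given as CPM with exact Poisson intervals, log2 ratios had 0.5 UMI added, and their intervals were exact conditional binomial (95%, scipy 1.17.1). A value of 0 was taken to allow 3 UMIs per library. No test across libraries was possible. Scripts were tested on simulated counts. TMM factors came from edgeR 4.0.16. All 30 members, and of the wider list genes with at least 50 UMIs in their class, are named, except 1 that is not reported here, and the members and lists were chosen with earlier results of these data known.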

Additional observations from a re-analysis of the deposited data

Results flagged for a closer look

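For 3 genes, MI-NS lay above Sham-NS in some classes and below it in others, with intervals on both sides that left out 0 and at least 1 value past 2-fold, among classes with at least 50 nuclei in every library. The differences between classes were not tested, since there is 1 library per group. The log2 ratio of MI-NS to Sham-NS for C3 was 1.13 in macrophage-like nuclei, 3.06 in cardiomyocyte-like nuclei and 1.23 in those of vascular endothelial-like clusters, against -0.68 in fibroblast-like nuclei. The fibroblast-like value turned to 1.06 with equal cluster weights and was near level in the Vcan-led cluster, at 153 and 149 CPM. In vascular endothelial-like nuclei the 11 fibroblast markers, none at 0, summed to 612, 1571 and 451 CPM in Sham-NS, MI-NS and MI-DAPA, and in cardiomyocyte-like nuclei C3 was at 2.50, 21.7 and 1.89 CPM. Their part in these differences was not tested. For C1s1 the ratio was 0.86 in cardiomyocyte-like nuclei, -1.08 in fibroblast-like nuclei (0.78 with equal cluster weights) and -0.81 in smooth muscle-like nuclei. The cardiomyocyte-like value rests on a trace, 27 UMIs in each of the compared libraries and a mean of 7.68 CPM over all libraries. TMM moved it by -0.24. For Cfp the ratio was 0.85 in macrophage-like nuclei, -0.74 in cardiomyocyte-like nuclei and -1.32 in vascular endothelial-like nuclei.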

How the results depend on the processing

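No paired analysis was possible because there is 1 library per group. Of the 23 genes with a source class, 15 kept it when only classes with at least 50 nuclei in every library were used, a setting chosen after seeing the data, and 19 to 23 kept it under the other 7 settings, with Masp1 losing its source in 5 of them. The 6 genes at least 2-fold higher in MI-NS than Sham-NS became 3 with at least 200 UMIs required and 10 over all kept nuclei, and the 2 lower became 0 with 200 UMIs required and 1 each with stricter nuclei (at least 500 genes and at most 5% mitochondrial UMIs), nuclei thinned to 500 UMIs, TMM factors, all kept nuclei, or all kept nuclei without the mesothelial-like and adipocyte-like ones (chosen after seeing the data). For MI-DAPA against MI-NS the 2 higher became 0 with stricter nuclei, TMM factors, all kept nuclei and all without those classes, and 1 with complement genes kept in the clustering, thinned nuclei or 200 UMIs. The 6 lower became 2 with 200 UMIs, 17 over all kept nuclei and 15 without those classes. Among values at least 2-fold apart in the source class, the MI-NS to Sham-NS sign reversed for Clu in mesothelial-like nuclei with stricter nuclei (log2 -0.25). It also reversed for C2 over all kept nuclei (3.58, and 2.51 without those classes). For MI-DAPA against MI-NS the sign reversed for C4b with TMM (-1.67) and over all kept nuclei (-2.39, and -1.65). The same held for C1s1 over all kept nuclei (-1.15, and -0.59). With smaller values counted too, 15 of 21 shared genes kept their sign over all kept nuclei for MI-NS against Sham-NS. For MI-DAPA against MI-NS 14 of 20 did. Among the changes, C1s1 went from -0.81 in smooth muscle-like nuclei to 0.39 (0.28 to 0.50) for MI-NS against Sham-NS. Apart from fewer genes or other nuclei counted, the cause was not tested. TMM moved every ratio of MI-NS to Sham-NS by -0.11 in fibroblast-like, -0.22 in vascular endothelial-like and -0.24 in cardiomyocyte-like nuclei and by -0.34 over all kept nuclei, and MI-DAPA to MI-NS by 0.12 in vascular endothelial-like and 0.26 in cardiomyocyte-like nuclei and 0.37 over all. In the small classes it moved them much further, by 1.86 and -3.26 in adipocyte-like and 0.68 and -0.65 in mesothelial-like nuclei, in the same order of comparisons. Equal cluster weights were also chosen after seeing the data. With 1 library per group and few UMIs per nucleus, differences under the stated intervals were not detectable at this depth.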

Other observations

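Compared directly with Sham-NS, MI-DAPA was lower for C1qa in macrophage-like nuclei, at a log2 ratio of -1.04 (-1.43 to -0.69), and for C3 in fibroblast-like nuclei, at -1.01 (-1.38 to -0.67). It was higher for Cd93 in vascular endothelial-like nuclei, at 0.83 (0.54 to 1.12), and for C4b in fibroblast-like nuclei, at 0.66 (0.38 to 0.95). In cardiomyocyte-like nuclei, the Masp1 value was higher in a cluster led by Myh7 and Ankrd1 than in one led by Ces1d, in each library. It was 33.9 against 12.9 CPM in Sham-NS, 24.0 against 10.8 in MI-NS and 19.8 against 7.99 in MI-DAPA. Sham-NS was thus highest within each cluster, while MI-NS was highest over the whole class. All these values together rest on 164 UMIs and are given without intervals. The Myh7-led cluster of Sham-NS had 103 nuclei and the Ces1d-led cluster of MI-NS had 271.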
